A study of Homo sapiens with 10 samples.

Results

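Collagen chain genes were examined in RPE-1 cells, an established line of human retinal pigment epithelial cells immortalized with telomerase, after acute treatment with sulforaphane (SFN), an isothiocyanate of cruciferous vegetables. The members were all rows of the count table whose symbol reads COL, a number, A and a number, which gave 39 of the 28380 genes. SFN at 25 µM was given for 4 h to 5 samples of 50000 cells, and 5 samples received the vehicle DMSO for the same time. Both groups are the same line, and the labels name no allele or agent besides SFN and DMSO. The methods describe replicates as independent in general but do not say whether those of the RNA-seq came from separate cultures, so the p-values measure the spread between these samples, which may be technical.

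Collagens are proteins of 3 chains wound into a triple helix, each chain encoded by a gene of its own. Fibrillar chains form the ropes of connective tissue, type IV chains form the sheet of basement membranes, on which the retinal pigment epithelium rests as part of Bruch's membrane, and other classes attach to fibrils, anchor membranes or cross the plasma membrane. Chains are hydroxylated and folded in the endoplasmic reticulum by dedicated enzymes and chaperones before they are secreted and cross-linked.

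Promoters are shown for the member whose level changed most, COL11A2, and for the pair of type IV chains with the most reads, COL4A1 and COL4A2, whose RefSeq starts face away from each other on chromosome 13 at 110307157 and 110307284, 127 bases apart. RefSeq lists 4 starts for COL11A2, and the one shown is the outermost whose window lies clear of the upstream gene. The sequences are RefSeq windows of GRCh38.p14, 250 bases before to 50 after a start, on the strand of the gene named. Capitals mark the letters of an NF-Y box, CCAAT, those at the core of a SMAD element, CAGAC, and those of a GC box, GGGCGG, on either strand. The COL11A2 window is chr6:33193088-33193387 (minus strand) and the COL4A1 window is chr13:110307108-110307407 (minus strand), which also holds the COL4A2 start on the plus strand.
COL11A2: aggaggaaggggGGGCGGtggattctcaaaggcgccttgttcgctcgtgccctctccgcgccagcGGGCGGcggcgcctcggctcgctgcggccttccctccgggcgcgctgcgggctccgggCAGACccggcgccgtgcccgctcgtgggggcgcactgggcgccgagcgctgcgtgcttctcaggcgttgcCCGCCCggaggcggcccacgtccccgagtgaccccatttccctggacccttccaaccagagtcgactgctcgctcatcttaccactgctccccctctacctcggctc
COL4A1: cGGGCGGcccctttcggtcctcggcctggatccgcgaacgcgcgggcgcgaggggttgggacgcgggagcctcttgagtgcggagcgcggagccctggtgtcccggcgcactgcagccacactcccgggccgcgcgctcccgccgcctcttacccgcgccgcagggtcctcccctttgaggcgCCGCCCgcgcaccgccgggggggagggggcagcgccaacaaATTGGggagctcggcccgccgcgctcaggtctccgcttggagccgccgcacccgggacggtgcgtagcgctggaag
The COL11A2 window shown held 3 GGGCGG matches, 1 CAGAC match and 0 CCAAT matches, and the COL4A1 window held 2 GGGCGG matches, 1 CCAAT match and 0 CAGAC matches. The other 3 COL11A2 windows held 0 or 1 GGGCGG matches, and 2 of them held 1 CCAAT match. RefSeq gave 39 windows for 28 of the members. On either strand, with overlaps allowed, CCAAT was in 33.3% of them against 34.6% of all 35116 windows, CAGAC in 43.6% against 45.3%, and GGGCGG in 56.4% against 45%.

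The total count per library ranged from 15689294 to 20666692 in DMSO and from 12375860 to 17308706 in SFN. Levels are given as CPM, the counts of a gene relative to the size of the library as scaled by the TMM method. DMSO replicate 1 stood apart from the other DMSO libraries. Its mean Spearman correlation with them was 0.935, against 0.979 to 0.982 for the others. The length slope is the change, with each doubling of transcript length, of log2 CPM relative to each gene's mean over all libraries. It was -0.271 in DMSO replicate 1, against 0.0872 to 0.148 in the other DMSO libraries. SFN replicate 2 had the lowest slope of the SFN libraries, -0.183. SFN replicates 1, 3 and 4 were at -0.0456, -0.0574 and -0.0355, and SFN replicate 5 was at 0.109. Most SFN slopes thus lay below those of DMSO replicates 2 to 5, so without DMSO replicate 1 the groups differed in slope. The part of that difference in the results without DMSO replicate 1 was not tested. Results that rest on DMSO replicate 1 or SFN replicate 2 are given with and without them. As a check of the cell type, the summed level of 10 genes of retinal pigment epithelium ranged from 62.5 to 104 CPM in DMSO and from 55.8 to 137 CPM in SFN, and RPE65, TTR, TYRP1 and SERPINF1 had at most 3 counts in any library. Of the 4 such genes that could be tested, OTX2 and MITF were significantly lower in SFN and 0 were higher, beside 13.9% and 9.07% of all genes tested. Without DMSO replicate 1 both remained lower and BEST1 was called higher (log2 fold change 1.68, adjusted p = 0.0096 by edgeR, against 1.17 and 0.16 with all libraries). BEST1 reached 107 CPM in SFN replicate 2, the library with the sum of 137 CPM. For 9 mesenchymal genes the sum was 11600 to 16800 CPM in DMSO and 15800 to 18400 CPM in SFN, and for 5 epithelial genes it was 510 to 820 and 532 to 891 CPM, with EPCAM at no more than 3 counts. Most of the mesenchymal sum came from FN1 and VIM, at means of 8370 and 5690 CPM in DMSO. PDGFRA and S100A4 had at most 17 and 16 counts in any library and were not tested. Of the mesenchymal and epithelial genes, 7 and 3 were tested and 0 were called in either direction by edgeR, beside 23.0% of all genes tested. Without DMSO replicate 1, TAGLN (log2 fold change 0.56, adjusted p = 0.0034), KRT8 (0.37, adjusted p = 0.016) and KRT7 (0.38, adjusted p = 0.034) were called higher and PDGFRB (-0.43, adjusted p = 0.032) lower. In that fit 22.5% of all genes tested were called higher and 23.5% lower. The part of the marker shifts in the collagen results was not tested.

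Of the 39 members, 23 had enough counts for a test (edgeR's filterByExpr function, which left 13378 genes in all) and held 99.9% of all collagen counts. Most reads came from a few chains. COL4A2 held 28.7% of the collagen counts, COL4A1 20.3%, COL8A1 16.9% and COL12A1 13.9%, together 79.8%. Per kilobase of the canonical transcript, the DMSO level was highest for COL4A2, at 92.3 CPM per kb, followed by COL8A1 at 69.8, COL4A1 at 67.3, COL12A1 at 27.2, COL5A2 at 18.0, COL7A1 at 12.7 and COL13A1 at 11.8 CPM per kb. Reads of transcript ends alone, the library type that the methods name, do not scale with length. The order of COL8A1 and COL4A1 changed without DMSO replicate 1, with COL4A2 at 106, COL4A1 at 77.1 and COL8A1 at 68.0 CPM per kb. The plot of collagen levels by library orders the genes by CPM.

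**Figure D1:**
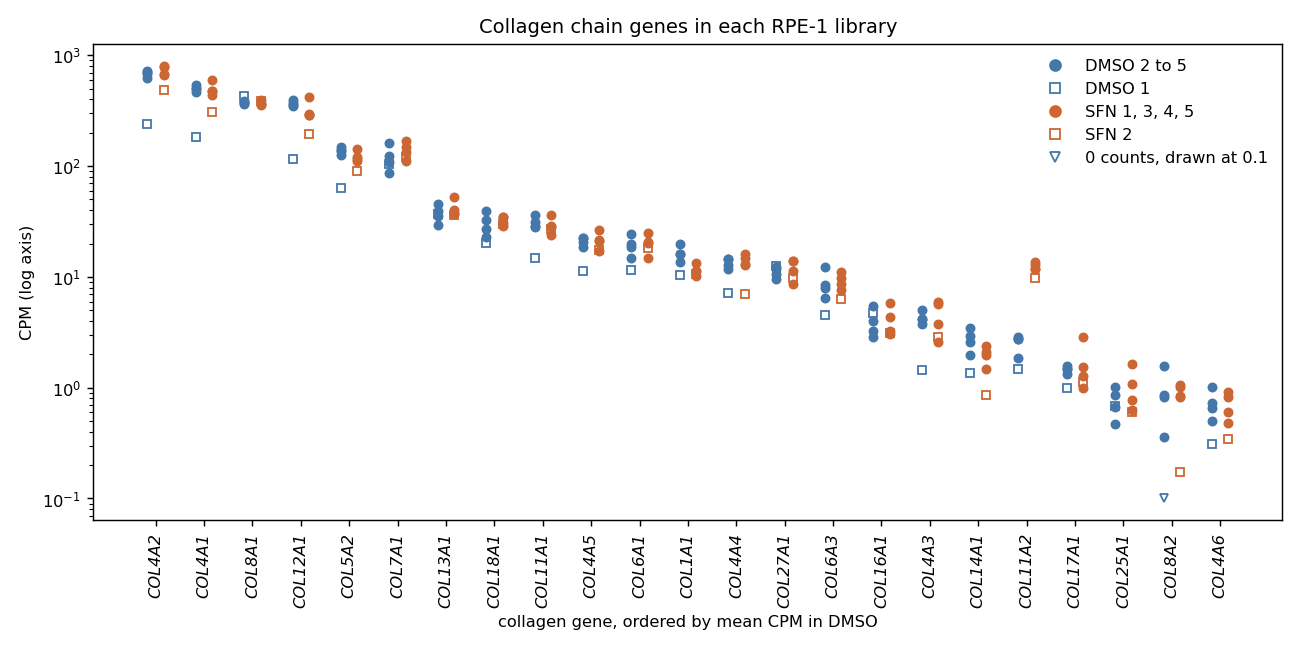
Level of each of the 23 collagen genes tested, in CPM on a log axis, with 1 point per library, DMSO in blue and SFN in orange, and open squares for DMSO replicate 1 and SFN replicate 2. COL11A2 is the single gene whose SFN points all lie above its DMSO points, and DMSO replicate 1 is the lowest DMSO point in 17 of the 23 genes.

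The first comparison asked which collagen chains changed with 4 h of SFN. COL11A2, a fibrillar chain, rose 5.02-fold, and it was the only member called at an adjusted p under 0.05 by the quasi-likelihood test of edgeR, adjusted by Benjamini-Hochberg over every gene in the fit. That is 1 of 23 members higher (4.35%) beside 9.07% of all genes tested, and 0 of 23 lower beside 13.9% of all genes (23.0% in either direction). At an unadjusted p under 0.05, 1 member was higher, beside 14.6% of all genes, and 1, COL1A1, was lower, beside 20.0%. DESeq2 and limma-voom also called 1 higher and 0 lower. COL11A2 was also the only member called with an absolute log2 fold change above 1, which 2.94% of all genes passed upward and 5.76% downward. Among the 23 tested, its groups were the only ones that did not overlap, with SFN above, as for 8.78% of all genes, whereas 0 members had SFN below DMSO in every library, as for 11.1% of all genes. In bulk samples, fewer cells of a type and less RNA per cell cannot be told apart.

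The other 22 members had log2 fold changes between -0.48 and 0.34. The median over the 23 was 0.11, beside -0.028 over all genes tested, with 16 positive and 7 negative. Without DMSO replicate 1 the median was -0.015, with 9 positive and 14 negative, so the balance of signs changed with that library. A change that was not called is not shown to be absent. For 19 of the 23 the 95% interval of the fold change lay within 2-fold in either direction, and standard errors ran from 0.09 for COL8A1, the most precise, to 0.65 for COL8A2, which had 0 counts in DMSO replicate 1.

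**Figure D2:**
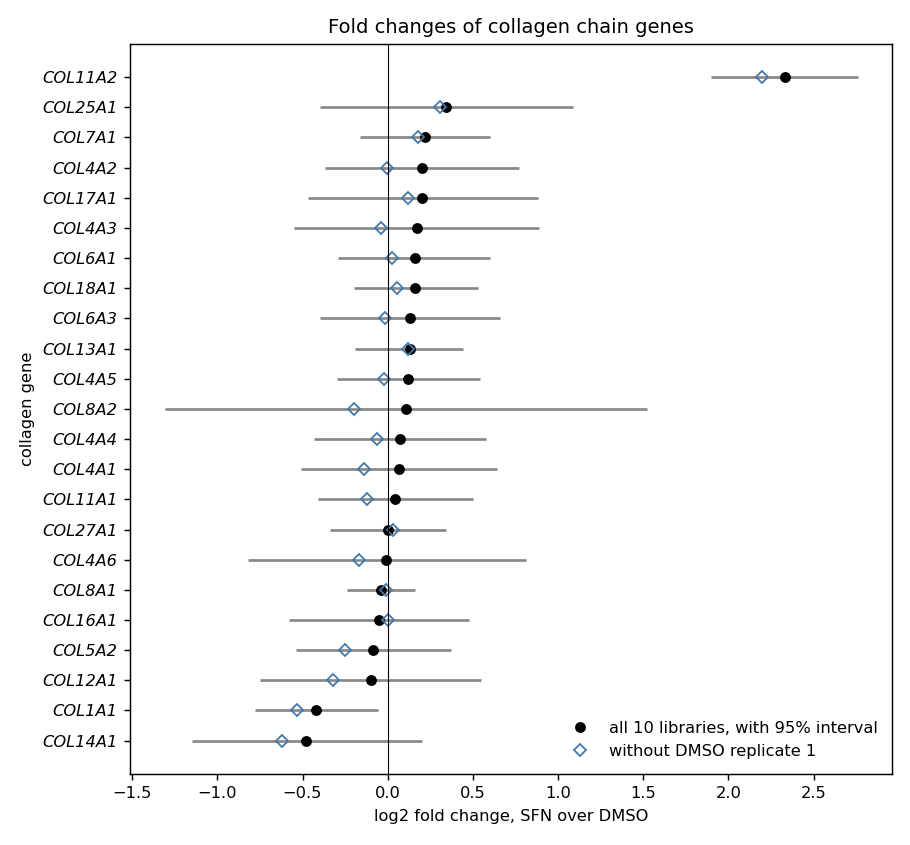
Log2 fold change (SFN over DMSO) of each collagen gene tested, ordered by size, with all 10 libraries and without DMSO replicate 1, and with 95% intervals as bars for the fit of all libraries. COL11A2 lies at 2.33 and the other 22 genes between -0.48 and 0.34.

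COL11A2 encodes the α2 chain of type XI collagen, a minor fibrillar collagen that joins the α1(XI) chain in cartilage fibrils. In GENCODE 44 (GRCh38) it occupies chr6:33162681-33192499 on the minus strand. The DMSO libraries held 1.49, 2.78, 2.85, 1.87 and 2.78 CPM and the SFN libraries 11.7, 9.75, 11.8, 13.6 and 12.7 CPM. All SFN values lay above all DMSO values, with no overlap. The underlying counts were 24, 61, 51, 31 and 47 in DMSO against 197, 113, 158, 201 and 180 in SFN. The mean was 2.35 ± 0.63 CPM (SD, n = 5) in DMSO and 11.9 ± 1.42 CPM (SD, n = 5) in SFN. The log2 fold change was 2.33 (SE 0.20, 95% interval of the fold 3.74 to 6.75, adjusted p = 8.8e-06 by edgeR). It stayed between 2.20 and 2.40 when each library was left out in turn. COL11A1 encodes the partner chain of the same trimer. Its DMSO values were 14.8, 29.0, 36.5, 31.2 and 28.2 CPM and its SFN values 23.8, 26.9, 29.0, 28.3 and 36.1 CPM, which overlap, and its log2 fold change was 0.05 (SE 0.21, adjusted p = 0.91 by edgeR).

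The gene directly upstream of COL11A2 on the same strand is RXRB, a nuclear receptor, at chr6:33193588-33200665 and 1089 bases from the GENCODE start. RefSeq lists COL11A2 starts at 33193519, 33193137, 33190562 and 33177592, which lie 68, 450, 3025 and 15995 bases from the end of RXRB. RXRB held 18.9, 31.5, 29.0, 28.9 and 26.3 CPM in DMSO and 25.2, 22.6, 25.8, 28.3 and 26.3 CPM in SFN, and the groups overlapped. Its means were 26.9 ± 4.83 and 25.6 ± 2.06 CPM (SD, n = 5 each) and its log2 fold change was -0.07 (SE 0.14, adjusted p = 0.77 by edgeR). From which start, or from which stretch of the locus, the COL11A2 reads came was not tested. Of 1022 tested genes that start within 5 kb downstream of a gene of at least 10 CPM on the same strand, 164 were called higher (16.0%). Of the 340 of these with a DMSO mean under 5 CPM, 93 were called higher (27.4%), beside 342 of all 3229 tested genes at that level (10.6%). COL11A2 is itself among the 93, and the 340 are among the 3229. Choosing tested genes by a low DMSO mean can favour calls upward in both sets. What these shares mean for COL11A2 was not tested. COL7A1 is the other tested member within 5 kb downstream of such a gene, 3673 bases from UQCRC1, and was not called. UQCRC1, a subunit of respiratory complex III, had 137 ± 10.9 CPM in DMSO and 169 ± 17.0 CPM in SFN (SD, n = 5 each; log2 fold change 0.30, adjusted p = 0.058 by edgeR).

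**Figure D3:**
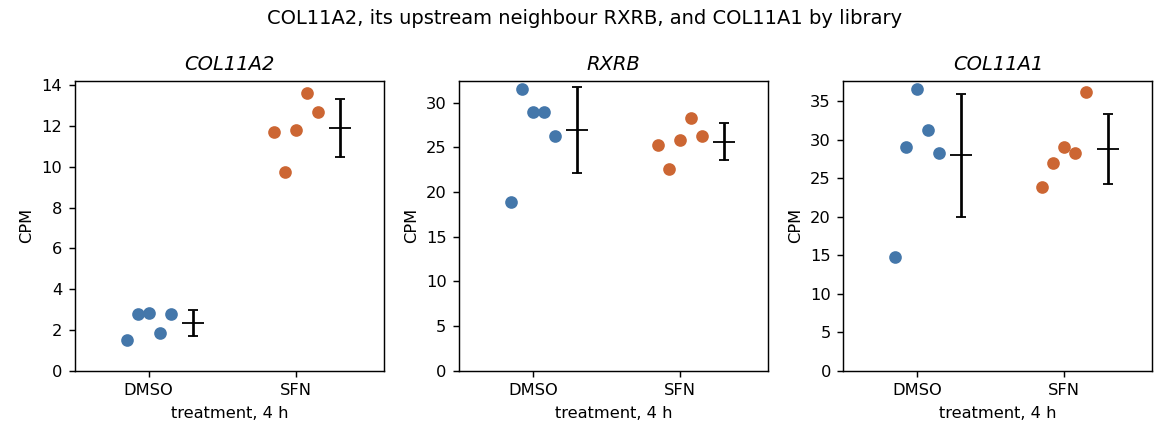
Level of COL11A2, of its upstream neighbour RXRB and of the partner chain gene COL11A1 in CPM, with 1 point per library and the mean with its SD (n = 5) as a bar beside the points. COL11A2 lies between 1.49 and 2.85 CPM in DMSO and between 9.75 and 13.6 CPM in SFN, whereas the groups overlap for RXRB and COL11A1.

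The remaining fibrillar chains tested were COL1A1, COL5A2 and COL27A1. COL1A1 encodes the main chain of type I collagen, the bulk of bone and skin matrix. Its DMSO libraries held 10.4, 16.0, 19.9, 13.6 and 16.0 CPM and its SFN libraries 13.4, 10.7, 10.1, 11.3 and 11.2 CPM. DMSO replicate 1 was the single DMSO library within the SFN range. The means were 15.2 ± 3.51 and 11.3 ± 1.22 CPM (SD, n = 5 each), the log2 fold change was -0.42 (SE 0.17) and the adjusted p was 0.091 by edgeR. Without DMSO replicate 1 the log2 fold change was -0.53 and the adjusted p 0.0042 by edgeR, which made COL1A1 the only member called lower. That is 1 of the 23 members tested with all libraries (4.35%), beside 23.5% of the genes tested without that library. In the same fit 1 member was called higher, beside 22.5%. The filter was run again in that fit, so the members tested there can differ from the 23. COL1A1 overlaps an antisense gene on the other strand, and whether the counting used strand is not stated, so reads of the pair cannot be told apart. COL5A2, a chain of type V collagen that regulates fibril diameter, held 63.8, 138, 148, 140 and 125 CPM in DMSO and 112, 89.9, 115, 121 and 142 CPM in SFN, with overlap (log2 fold change -0.08, SE 0.21, adjusted p = 0.82 by edgeR). COL27A1, a fibrillar chain of cartilage, had a log2 fold change of 0.0042 (SE 0.16, adjusted p = 0.99 by edgeR), and DMSO replicate 1, at 12.6 CPM, was its highest DMSO library.

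All 6 type IV genes were tested and none was called in either direction by edgeR, with log2 fold changes from -0.01 for COL4A6 to 0.20 for COL4A2. COL4A1 and COL4A2 form the common trimer of basement membranes. COL4A2 held 242, 725, 702, 679 and 625 CPM in DMSO and 674, 490, 661, 783 and 808 CPM in SFN. COL4A1 held 183, 510, 537, 500 and 470 CPM in DMSO and 442, 309, 472, 480 and 597 CPM in SFN. In both genes DMSO replicate 1 was far below the other DMSO libraries and SFN replicate 2 was the lowest SFN library. The log2 fold changes were 0.20 (SE 0.26, adjusted p = 0.64) and 0.06 (SE 0.26, adjusted p = 0.90) by edgeR. Without DMSO replicate 1 they were -0.0036 and -0.14.

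The α3, α4 and α5 chains make the trimer of specialised membranes such as those of the glomerulus, and the α6 chain joins α5. COL4A3 and COL4A4 lie back to back on chromosome 2, with starts 171 bases apart, and COL4A5 and COL4A6 on chromosome X, 341 bases apart. COL4A5 averaged 19.1 ± 4.55 CPM in DMSO and 20.8 ± 3.8 CPM in SFN, COL4A4 12.1 ± 2.99 and 12.8 ± 3.43 CPM, COL4A3 3.71 ± 1.36 and 4.16 ± 1.56 CPM, and COL4A6 0.639 ± 0.259 and 0.633 ± 0.237 CPM (SD, n = 5 each). All 4 genes overlapped between the groups, and COL4A6, the tested member with the fewest reads, had 4 to 18 counts per library. COL4A3, COL16A1 and COL18A1 also overlap genes on the other strand, so that their reads there cannot be told apart without strand.

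Because chains of 1 trimer are needed in fixed proportion, the ratio of their counts within each library, which does not depend on scaling, was compared for the 3 of 9 listed chain pairs that had counts throughout. The log2 ratio of COL4A1 to COL4A2 was -0.40, -0.51, -0.39, -0.44 and -0.41 in DMSO and -0.61, -0.67, -0.48, -0.71 and -0.44 in SFN. DMSO replicate 1 was not apart on this measure, and the groups overlapped. The mean was -0.43 ± 0.05 in DMSO and -0.58 ± 0.12 in SFN (SD, n = 5 each), a difference of -0.15 (exact permutation test, two-sided, p = 0.0397, and 0.119 after Benjamini-Hochberg adjustment over the 3 pairs). The ratio of COL4A5 to COL4A6 differed by 0.14 (exact p = 0.548, adjusted 0.822) and that of COL6A1 to COL6A3 by 0.0028 (exact p = 0.976, adjusted 0.976). With 5 against 5 the smallest p this test allows is 0.00794. For 2 further pairs, chosen after their values were seen, the ratios are a description. The log2 ratio of COL11A1 to COL11A2 was 3.31, 3.38, 3.68, 4.06 and 3.34 in DMSO and 1.02, 1.47, 1.30, 1.06 and 1.51 in SFN, without overlap, a mean of 3.55 ± 0.32 against 1.27 ± 0.22 (SD, n = 5 each). That of COL4A3 to COL4A4 overlapped, at -1.78 ± 0.34 in DMSO and -1.65 ± 0.53 in SFN (SD, n = 5 each). COL4A1 and COL4A2 overlap on opposite strands in GENCODE, so their reads there cannot be told apart without strand.

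FACIT collagens attach to the surface of fibrils. The 3 that were tested all had negative values and none was called by edgeR. COL14A1 held 1.37, 2.60, 2.91, 1.99 and 3.49 CPM in DMSO and 2.09, 0.863, 1.49, 1.96 and 2.40 CPM in SFN, with overlap (log2 fold change -0.48, SE 0.31, adjusted p = 0.31 by edgeR). COL12A1, the FACIT with the most reads, held 115, 349, 373, 358 and 397 CPM in DMSO and 291, 195, 293, 287 and 419 CPM in SFN. DMSO replicates 2 to 5 were above all SFN libraries but replicate 5, and DMSO replicate 1 was below all of them. The log2 fold change was -0.10 (SE 0.30, adjusted p = 0.85 by edgeR), and -0.32 (adjusted p = 0.11) without DMSO replicate 1. COL16A1 averaged 4.05 ± 1.05 CPM in DMSO and 3.91 ± 1.21 CPM in SFN (SD, n = 5 each).

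COL7A1 encodes the anchoring fibril that ties the basement membrane to the tissue below. It held 105, 123, 163, 110 and 86.6 CPM in DMSO and 111, 121, 150, 170 and 135 CPM in SFN, with overlap (log2 fold change 0.22, SE 0.17, adjusted p = 0.41 by edgeR). COL8A1 encodes a short chain of Descemet's and Bruch's membranes and was the steadiest member, at 426, 381, 387, 361 and 371 CPM in DMSO and 357, 389, 366, 362 and 399 CPM in SFN. Its log2 fold change was -0.04 (SE 0.09), with a 95% interval of the fold from 0.845 to 1.12. Its partner COL8A2 had 0 to 28 counts per library. COL6A1 and COL6A3, of the beaded filaments of type VI, averaged 17.8 ± 4.97 and 7.94 ± 2.85 CPM in DMSO and 19.8 ± 3.73 and 8.71 ± 1.82 CPM in SFN (SD, n = 5 each). COL18A1, a basement membrane proteoglycan whose fragment is endostatin, averaged 28.4 ± 7.47 and 31.8 ± 2.52 CPM (SD, n = 5 each). The membrane-spanning chains COL13A1, COL17A1 and COL25A1 had log2 fold changes of 0.13 (SE 0.14), 0.20 (SE 0.31) and 0.34 (SE 0.34), the last with 7 to 22 counts per library. None of these was called.

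The 16 members that were not tested had at most 17 counts in any library. They were the fibrillar chains COL1A2, COL2A1, COL3A1, COL5A1, COL5A3 and COL24A1, the FACIT chains COL9A2, COL9A3, COL19A1, COL20A1, COL21A1 and COL22A1, and COL6A2, COL10A1, COL15A1 and COL28A1. Several are partners of chains with ample reads. COL1A2, the second chain of type I collagen, had 0 to 5 counts where COL1A1 had 124 to 356. COL5A1 had 0 to 11 counts where COL5A2 had 1025 to 3023, and COL6A2 had 0 to 6 where COL6A1 had 184 to 438. A count of 3 in these libraries stands for 0.137 to 0.259 CPM, which bounds what a count of 0 can hide by counting error alone. COL20A1 had 0 counts in all DMSO libraries and 4, 0, 3, 7 and 4 in SFN, at least 7.16-fold higher with a floor of 3 counts over the DMSO group, and in a fit of all genes with no low-count filter its adjusted p was 0.017 by edgeR. It starts 3396 bases downstream of ARFGAP1, which had 56.5 ± 7.76 CPM in DMSO and 47.6 ± 5.25 CPM in SFN (SD, n = 5 each). COL21A1 had 0, 7, 4, 0 and 1 counts in DMSO and 11, 7, 9, 10 and 6 in SFN, with an adjusted p of 0.057 in the same fit. Its highest DMSO library was at 0.319 CPM and its lowest SFN library at 0.424 CPM. All DMSO libraries of COL5A1 lay above all of SFN on the CPM scale, at 0.237 against 0.223 CPM where closest, with an adjusted p of 0.27 in that fit. The collagen genes COL6A5, COL6A6, COL9A1, COL23A1 and COL26A1 had no row under these symbols in the count table, so they could not be analysed.

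A further comparison covered the genes that make, export, cross-link, bind and break down collagen. Of 101 genes in 8 lists, 96 were in the table and 78 were tested, and 12 rose (15.4%, beside the 9.07% of all genes). The lists were chosen with earlier results of these data known, so these shares are a description and not a test. By edgeR 0 fell, beside 13.9% of all genes. At an unadjusted p under 0.05 18 were higher and 0 lower, beside 14.6% and 20.0% of all genes, and DESeq2 and limma-voom called 0 lower. The median log2 fold change was 0.18. The 12 that rose comprised 5 of 14 hydroxylases and chain glycosyltransferases, 4 of 13 chaperones and export factors, 1 of 5 cross-linking enzymes and 2 of 9 genes of breakdown. The breakdown genes that rose include MMP1, which passed the filter through its SFN libraries. In propeptide processing (6 tested), collagen receptors (7), basement membrane partners (15) and fibril-bound matrix proteins (9), none was called in either direction. Without DMSO replicate 1, 24 rose, beside 22.5% of the genes tested in that fit, and 3 fell, beside 23.5%. Those that fell were HSPG2, FBN1 and FBN2, so the count and the absence of decreases depended on that library. The 24 included PCOLCE2 and TLL2 of propeptide processing (7 tested) and CCN2 and TNXB among the fibril-bound proteins (10 tested). TLL2 and TNXB did not pass the filter with all libraries, so the 24 and the 12 are not counts over the same genes. Both passed when any DMSO library was left out. Among the SFN libraries, TLL2 passed only without replicate 2 and TNXB only without replicate 5. Both thus passed through SFN libraries, the group where they were higher, so their calls do not support a rise. The number that rose was 7 without SFN replicate 1, 3 or 4.

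Among the hydroxylases, P4HA1, a catalytic subunit of the prolyl 4-hydroxylase that stabilises the triple helix, held 89.9, 86.7, 74.4, 91.8 and 91.8 CPM in DMSO and 159, 129, 151, 146 and 168 CPM in SFN, with no overlap. Its log2 fold change was 0.79 (SE 0.11, adjusted p = 0.00024 by edgeR). PLOD3, a lysyl hydroxylase and glycosyltransferase, held 44.7, 59.8, 64.3, 55.3 and 53.6 CPM in DMSO and 86.8, 119, 91.4, 95.3 and 93.3 CPM in SFN, again with no overlap (log2 fold change 0.81, SE 0.13, adjusted p = 0.00074 by edgeR). PLOD1, P4HA2 and P4HB rose by less, with log2 fold changes of 0.53, 0.52 and 0.49, and their SFN libraries also lay above all DMSO libraries. P4HB, the protein disulfide isomerase that is the other subunit of the prolyl 4-hydroxylase, had an adjusted p of 0.038 by edgeR and was not called when DMSO replicate 2, 4 or 5 or SFN replicate 1, 2, 3 or 4 was left out. The other 4 stayed called without any single library.

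Among the chaperones, HSPA5 (BiP), the main HSP70 chaperone of the endoplasmic reticulum, held 1540, 914, 1010, 918 and 885 CPM in DMSO and 2040, 2100, 1920, 2020 and 1710 CPM in SFN. DMSO replicate 1 was the highest DMSO library for this gene but stayed below the lowest SFN library. The log2 fold change was 0.90 (SE 0.16, adjusted p = 0.0019 by edgeR). TMEM39A, which takes part in export from the endoplasmic reticulum, PPIB, a prolyl isomerase, and HSP90B1 rose with log2 fold changes of 0.61, 0.55 and 0.39. The groups overlapped for PPIB (adjusted p = 0.033 by edgeR) and HSP90B1 (adjusted p = 0.045 by edgeR), but not for TMEM39A. Of the 4, HSPA5 and TMEM39A stayed called without any single library, PPIB only without DMSO replicate 1 or SFN replicate 5, and HSP90B1 only without DMSO replicate 1. HSPA5, HSP90B1 and PPIB serve many secreted proteins besides collagen. SERPINH1 (HSP47), the chaperone specific to collagen, had a log2 fold change of 0.20 (SE 0.10, adjusted p = 0.17 by edgeR) and was called by DESeq2 and when DMSO replicate 1 was left out, on its own or with SFN replicate 2. LOX, the lysyl oxidase that starts cross-linking, rose from 342 ± 60.8 to 473 ± 41.9 CPM (SD, n = 5 each; log2 fold change 0.47, adjusted p = 0.03 by edgeR), a call lost without DMSO replicate 3 or 4 or SFN replicate 1, 3, 4 or 5. MMP1, the interstitial collagenase, had few reads, at 0.453 ± 0.239 CPM in DMSO and 1.16 ± 0.203 CPM in SFN (SD, n = 5 each; log2 fold change 1.36, SE 0.36, adjusted p = 0.019 by edgeR), and was not called without DMSO replicate 4. MMP1 passed the count filter through its SFN libraries, the group where it was higher, so its call does not support a rise. CTSK, a lysosomal collagenase, rose from 59.6 ± 3.37 to 78.6 ± 12.3 CPM (SD, n = 5 each) with overlapping groups, a call that held without DMSO replicate 1 or SFN replicate 5 and was lost without each of the others, and MMP3, MMP8, MMP9 and MMP13 had at most 3 counts in any library.

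**Figure D4:**
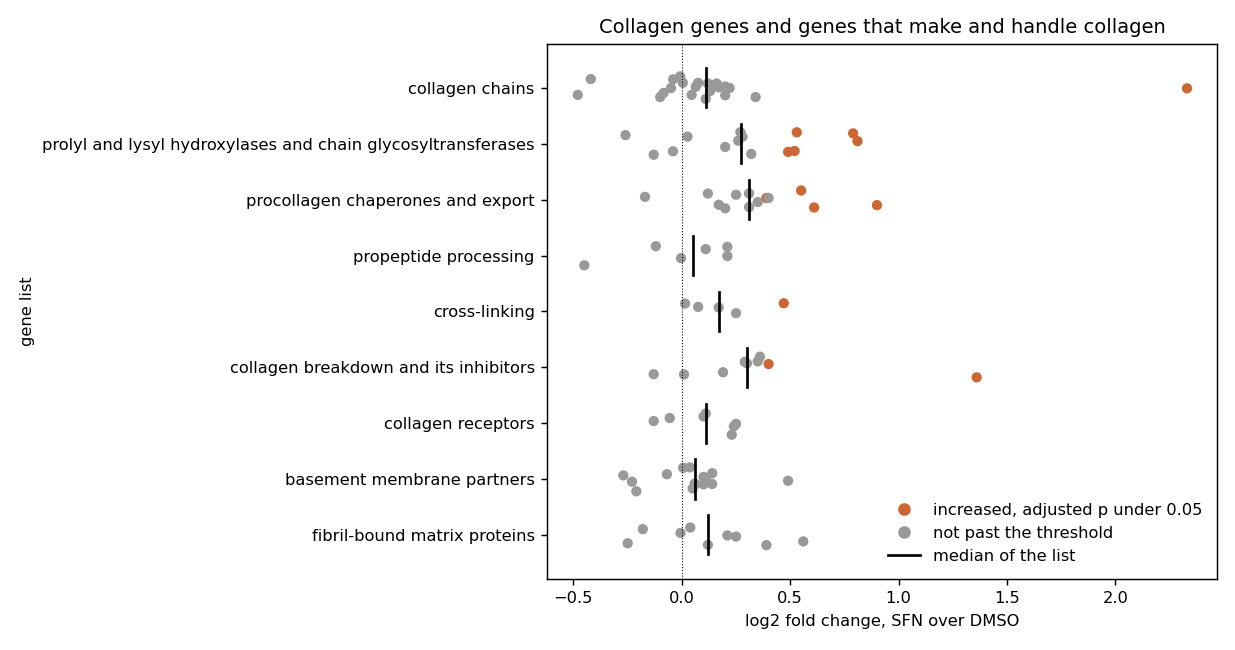
Log2 fold change (SFN over DMSO) of each gene tested, in 8 lists of genes that make and handle collagen and, for comparison, among the collagen chains, with 1 point per gene and orange points for genes with an adjusted p under 0.05 and black bars for the median of each list. The hydroxylases and chaperones hold 9 of the 12 genes called higher, whereas among the chains COL11A2 is the only gene called.

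The total of collagen reads overlapped between the groups. The summed level of all members was 1280, 2440, 2560, 2340 and 2260 CPM in DMSO and 2180, 1780, 2270, 2450 and 2740 CPM in SFN. DMSO replicate 1 and SFN replicate 2, the libraries with the lowest length slopes, also had the lowest sums of their groups, as in the plot of collagen reads against the slope. In DMSO replicate 1 the median member lay at 0.543 times the mean of the other DMSO libraries, and it was the lowest DMSO library for 17 of 23 genes. The ratio ran from 0.313 for COL12A1, leaving out COL8A2 with 0 counts, to 1.14 for COL8A1 and 1.22 for COL16A1. In SFN replicate 2 the median ratio was 0.733, and it was the lowest SFN library for 12 genes. With a correction of each library for transcript length, COL11A2 was again the only member called. The members are long. The canonical transcripts of the 23 tested had a median of 6540 bases and their genes a median span of 156975 bases, against 3173 and 30813.5 for all genes tested. Over all 39 the medians were 6394 and 127614 bases. Across the 23 genes the fold change had a Pearson r of -0.06 and a Spearman rho of -0.11 with the log2 transcript length, and -0.26 and -0.16 with the log2 gene span. Without DMSO replicate 1 the values were -0.09 and -0.27 with length, and -0.25 and -0.19 with span. With the length correction they were 0.02 and 0.15 with length, and -0.24 and -0.10 with span. These are descriptions over genes that share libraries.

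**Figure D5:**
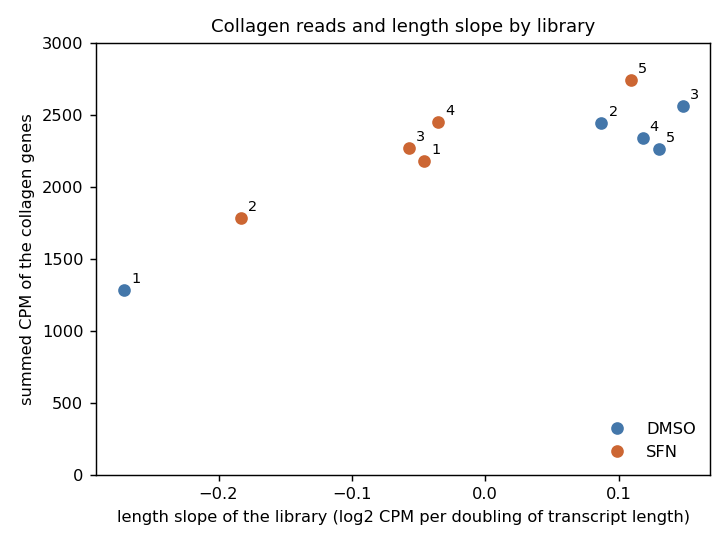
Summed CPM of the collagen genes in each library against the library's length slope, the change of log2 CPM with each doubling of transcript length relative to the mean of all libraries, with DMSO in blue, SFN in orange and replicate numbers beside the points. DMSO replicate 1, at a slope of -0.271, has 1280 CPM and SFN replicate 2, at -0.183, has 1780 CPM, the lowest sums of their groups.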

How the data were processed

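RNA from 10 samples of RPE-1 cells (5 DMSO, 5 SFN, 4 h) was analysed. The authors made Lexogen QuantSeq libraries, per their methods, and the labels name standard Illumina library preparation. Reads were processed with the Bluebee pipeline, and the submitters' processing notes name FastQC, STAR, featureCounts and edgeR and the builds hg38 and GRCh38, without versions or a use of strand. What was deposited is a table of raw counts by Ensembl gene and library. The authors then used quantile normalization, dream weights and limma with repeated measures that are not defined, a model not run here.

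Counts were filtered with filterByExpr, scaled by TMM and tested with glmQLFit and glmQLFTest in edgeR 4.0.16 (R 4.3.3), with Benjamini-Hochberg adjustment over 13378 genes. Standard errors were obtained as |log2 fold change| over the root of the F statistic, and they and the 95% intervals cover the spread between replicates. DESeq2 1.42.0 and limma 3.58.1 (voom on quantile normalized values), other scalings, no filter, a replicate block, a transcript length correction and leaving out each replicate were alternatives. The fits were tested on simulated counts. Replicates differed by more than sampling noise in every pair (chi-square per degree of freedom from 3.5 to 243). All 39 members matched GENCODE 44, which gave positions, and a length was known for 13324 genes tested. A pair of chains was compared by an exact permutation test over the 252 arrangements of the libraries. The text names every member tested, up to 4 called genes of each list (P4HB, the fifth of its list, the genes called lower without DMSO replicate 1, SERPINH1, the neighbouring genes and markers named with values were added after their values were seen) and markers in ranges. The members and lists were chosen with earlier results of these data known. Precision is limited by depth for members under about 1 CPM.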

Additional observations from a re-analysis of the deposited data

Results flagged for a closer look

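In DMSO replicate 1 the levels of COL12A1, COL5A2, COL4A1 and COL4A2 and the summed CPM of all collagen genes lay far below those of the other DMSO libraries. The gap to the nearest library was 0.828 of the group's range for COL12A1, 0.727 for COL5A2, 0.81 for COL4A1, 0.792 for COL4A2 and 0.764 for the sum, where Dixon's critical value for 5 samples is 0.71. In SFN, replicate 2 was low for COL8A2 (0.729 of the range) and replicate 4 was high for COL13A1 (0.724). In all, 48 groups were examined and 7 passed the limit, of which 5 were in DMSO replicate 1. Chance alone passes about 1 in 20 groups. The groups share libraries and the sum includes the flagged genes, so they are not independent and the 7 cannot be set against that share as separate trials. The same library had the lowest length slope, -0.271, and the part of the slope in these low values was not tested.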

How the results depend on the processing

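COL11A2 was called higher under every alternative run, all of which could be fitted. The total of genes called was 6379 with DMSO replicate 1 and SFN replicate 2 left out together, a setting chosen after seeing the data, and 2383 to 6251 with each replicate left out. The collagen genes called higher numbered 2 with no low-count filter, which added COL20A1, and 1 to 1 with each replicate left out. Those called lower numbered 1 (COL1A1) with both libraries left out, and 0 to 1 with each left out. The median of the members, 0.11, was -0.0022 with library size only, which put the median of all genes at -0.111, and -0.015 to 0.21 with each replicate left out. Partner genes called higher numbered 7 with a replicate block, 21 with the length correction, 25 with both libraries left out and 7 to 24 with each left out, and those called lower numbered 3 and 0 to 3 in the last 2 settings. The 25 and the 24 include TLL2, and the 24 also TNXB, neither of which was tested with all libraries. Both passed the filter through SFN libraries, where they were higher. The cause of these differences between settings was not tested.

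Members that were not called changed sign as follows. With the length correction COL12A1 was 0.12, COL5A2 0.055, COL16A1 0.018, COL8A1 0.028 and COL4A6 0.11. With limma-voom COL16A1 was 0.13, COL4A6 0.048 and COL4A1 -0.03. With both libraries left out COL16A1 was 0.074, COL11A1 -0.093 and COL4A1 -0.02. With RLE scaling and with DESeq2 COL4A6 was 0.01, and with the replicate block COL4A6 was 0.0012 and COL27A1 -0.012. With library size only COL27A1 was -0.074, COL11A1 -0.062, COL4A1 -0.047, COL4A4 -0.024 and COL8A2 -0.0022, and with no filter COL27A1 was -0.005. With each replicate left out the values ran from -0.32 to 0.02 for COL12A1, -0.24 to 0.076 for COL16A1, -0.18 to 0.21 for COL4A6, -0.074 to 0.095 for COL27A1, -0.12 to 0.16 for COL11A1, -0.14 to 0.18 for COL4A1, -0.064 to 0.23 for COL4A4, -0.2 to 0.58 for COL8A2, -0.021 to 0.19 for COL4A5, -0.015 to 0.34 for COL6A3, -0.038 to 0.3 for COL4A3, -0.15 to 0.33 for COL17A1 and -0.0036 to 0.3 for COL4A2.

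The difference in the COL4A1 to COL4A2 ratio was -0.15 with the replicate block. There the signs of the differences between same-numbered libraries were flipped, and the exact p of 0.0625 is the smallest that this sign-flip test allows. It therefore could not fall under 0.05. The difference was -0.12 with both libraries left out (exact permutation p = 0.143) and -0.19 to -0.12 with each left out. For COL6A1 to COL6A3 it was -0.044 with both left out and -0.08 to 0.11 with each left out, and for COL4A5 to COL4A6 it was -0.00089 to 0.24. Same-numbered libraries did not deviate together (correlations 0.0394, -0.267, -0.0605, 0.0308 and 0.484, with only replicate 5 closest to its own number), so the numbers are not taken as pairs.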
